A study of Mus musculus with 6 samples.

Results

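The Eph receptors and ephrins of the newborn mouse lens were followed through 21 probe sets of 9 genes, out of 22626 probe sets tested. Every probe set that the array annotation pairs with only 1 of the 10 named genes was taken, whatever its signal. They comprise 4 ephrins (Efna1, Efna5, Efnb1 and Efnb2, 10 probe sets) and 5 receptors (Epha2, Epha3, Epha4, Epha5 and Epha7, 11 probe sets). Ephb2, the tenth named gene, was named for no probe set in the annotation used here, alone or with other genes, and was not analysed here. RNA came from lenses of mice at postnatal day 1, 3 wild-type on an NMRI background and 3 Pax6 heterozygous with a lacZ allele in place of a working copy (Pax6 lacZ/+). Each sample held the 2 lenses of 1 mouse, so that epithelium and fibers were measured together, and the strain background is stated for the wild-type mice only. In such whole lenses a smaller number of expressing cells and less RNA per cell cannot be told apart. Values are signal intensities after robust multichip averaging (RMA), which merges the probes of a probe set, and they are given on the linear scale. Because each probe set has its own probes, no signal was set against that of another as an amount of RNA.

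Eph receptors are receptor tyrosine kinases, and their ligands, the ephrins, stay on the surface of the neighboring cell. Ephrins of class A are held by a lipid anchor and ephrins of class B span the membrane, and a contact can signal into both cells, often to repel axons, to sort cells or to shape vessels. In the lens, EphA2 and ephrin-A5 are the best known members. Mutations of EPHA2 cause inherited cataract in humans, and mice without Epha2 or ephrin-A5 have disordered lens cells and can develop cataract.

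The samples carried the marks of lens. Of 12 measured lens markers, 10 had a median signal of at least 50, and Cryaa, which encodes alpha-A crystallin, read between 12315 and 15675. The dim lens markers were Maf and Foxe3, with medians of 15.9 and 12.4. The brightest Pax6 probe set read 1169, 1760 and 963 in wild-type replicates 1, 2 and 3 and 942, 1170 and 882 in the heterozygous ones, a mean of 76.9% of wild type with overlapping genotypes, and over its 5 probe sets the heterozygous mean was between 62.4% and 114% of wild type. Samples that share a replicate number deviated together, so values are given in the order of replicates 1, 2 and 3. Markers of endothelium summed to 2092 and 3734 in replicate 1 of the wild-type and heterozygous mice and to between 882 and 1234 in the other 4 samples. Markers of other tissue were present too. A median of at least 50 was reached by 4 of 7 pigment cell and ciliary epithelium markers, 4 of 10 macrophage and 3 of 9 mesenchyme markers. The sum of each of these lists was likewise highest in replicate 1 of each genotype.

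Of the 21 probe sets, 6 had a median signal of at least 50 over the 6 arrays, which is 28.6%, against 39.2% of all tested probe sets. These belonged to Efnb2 (2 probe sets), Efnb1 (2), Efna1 and Epha5. A further 5 lay between 20 and 50, and 10 lay under 20. As a guide to background, 33 probe sets of olfactory receptor genes, chosen after the values were seen, had a median of 10.2 and a 95th percentile of 12.3. All probe sets of Epha4 and Epha7, the only probe set of Efna5, the dimmest of Efnb2 and the 2 dimmer ones of Epha3 were at or under that percentile, 9 of the 21 in all.

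**Figure D1:**
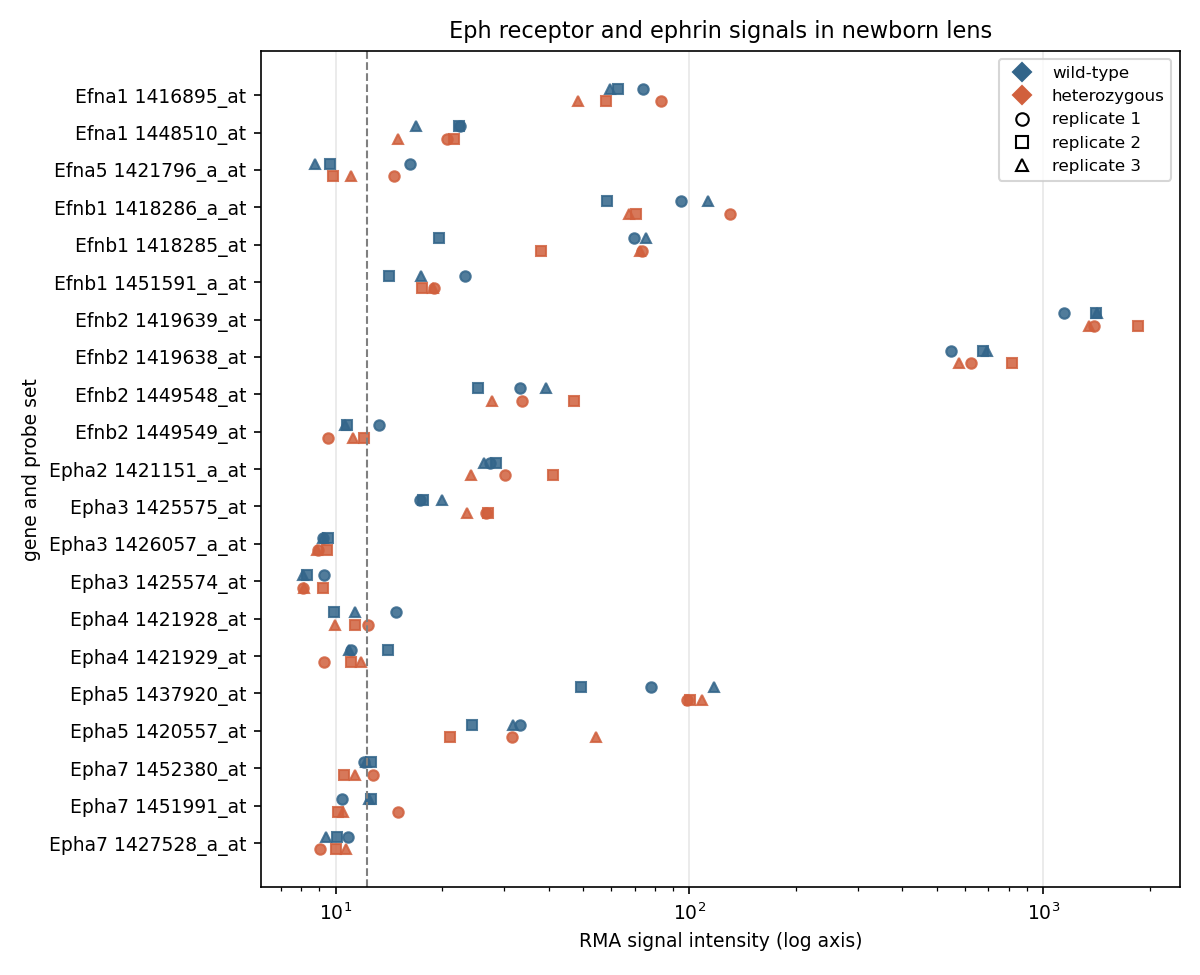
Signal of each Eph receptor and ephrin probe set on the 6 arrays (horizontal log axis, RMA intensity), with color for genotype and symbol for replicate number. The dashed line is the 95th percentile of olfactory receptor probe sets (12.3). The brighter Efnb2 probe sets stand between 549 and 1854, while all probe sets of Epha4 and Epha7 crowd around the line.

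No probe set of the family differed between genotypes after adjustment. With limma, 0 of 21 passed an adjusted p of 0.05, as did 0% of all tested probe sets, and the adjusted p of each was 1.00. At an unadjusted p under 0.05 there was 1 of 21, the brightest of Epha3, against 450 of all probe sets (1.99%), of which 221 (0.977%) were higher in heterozygous lenses. The methods' t-test gave 665 over all probe sets at that level. When replicate number was added as a block, 2 of all probe sets passed after adjustment, neither from this family, and 2042 (9.03%) had an unadjusted p under 0.05, while the family's count stayed at 1. Heterozygous and wild-type values were fully separate in 1 of 21, again that of Epha3, against 6.18% of all probe sets. The family had 10 differences above 0 and 11 below 0, with a median of 0.00 on the log2 scale, and the median over all probe sets was −0.01. The median size of a difference, whatever its sign, was 0.09, against 0.10 over all probe sets. That comparison was not matched for signal, and the family held a smaller share of bright probe sets.

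**Figure D2:**
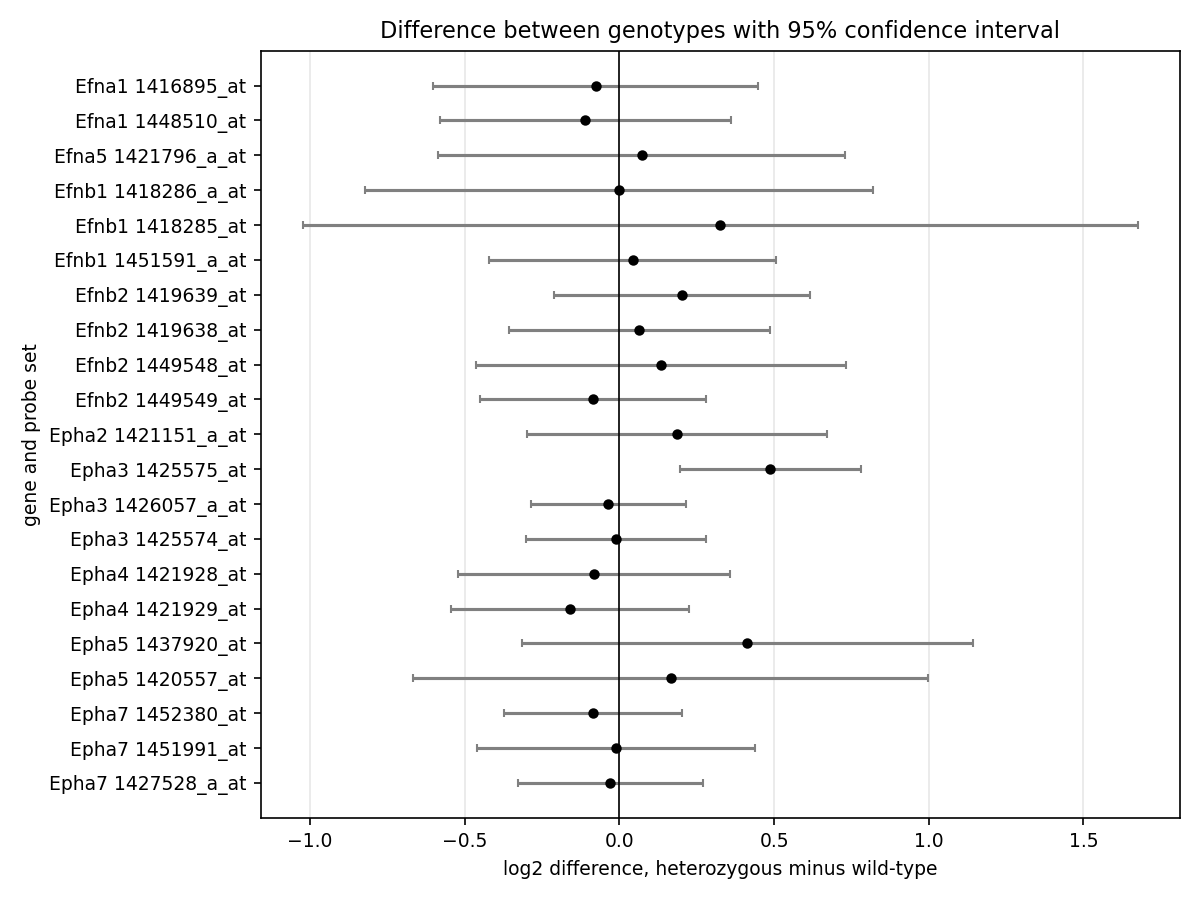
Log2 difference of each probe set, heterozygous minus wild-type (horizontal axis), as limma estimate (points) with 95% confidence interval (bars), 3 mice per genotype. Only the interval of Epha3 1425575_at, from 0.19 to 0.78 and not adjusted for the number of probe sets, lies wholly on one side of 0. The widest, that of Efnb1 1418285_at, runs from −1.02 to 1.68.

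Efnb2 encodes ephrin-B2, a transmembrane ligand best known from arterial endothelium and from the sorting of EphB-bearing cells. Its brightest probe set (1419639_at) read 1144, 1406 and 1419 in the wild-type mice and 1393, 1854 and 1348 in the heterozygous ones. Heterozygous replicate 2 was the highest of the 6 and wild-type replicate 1 the lowest, and the genotypes overlapped. The means were 1323 ± 155 and 1531 ± 280 (SD, n = 3 mice each), and the signal stood above 94.2% of tested probe sets. The log2 difference was 0.20 ± 0.17 (standard error), a ratio of 1.15 with a 95% interval from 0.864 to 1.53. It was 0.057 without heterozygous replicate 2 and 0.10 without wild-type replicate 1.

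The second bright Efnb2 probe set (1419638_at) put the 6 samples in the same order. It read 549, 676 and 696 in the wild-type mice and 627, 815 and 579 in the heterozygous ones, again with overlap. Its difference was 0.06 ± 0.18. The third (1449548_at) read from 25.3 to 47.0, with a difference of 0.14 ± 0.25, and the fourth (1449549_at) stayed between 9.49 and 13.3. Of the 3 pairs of mice with the same number, replicates 1 and 2 had the higher signal in the heterozygous mouse at each of the first 3 probe sets and replicate 3 had the lower.

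The sum of endothelium markers was 2092, 1008 and 882 in the wild-type mice and 3734, 1234 and 1146 in the heterozygous ones. It was highest in replicate 1 of each genotype and leaned there on Flt1. That gene read 914, 145 and 175 in the wild-type mice and 1854, 140 and 225 in the heterozygous ones. Tek, the angiopoietin receptor of vessels, read 628, 421 and 445 in the wild-type mice and 927, 604 and 617 in the heterozygous ones. Of the 12 endothelium markers measured, 11 had a difference above 0 and 5 a median signal of at least 50; Pecam1 and Cdh5, which define the cell type, had medians of 12.3 and 15.2. With limma Pecam1 was the 1 marker of this list with an unadjusted p under 0.05 (higher in heterozygous lenses, adjusted p = 1.00). With the block 5 of 12 passed that level, all higher (Pecam1, Kdr, Tek, Cldn5 and Robo4), against 9.03% of all probe sets, and 0 passed after adjustment. The part of endothelium in the Efnb2 signal was not tested.

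**Figure D3:**
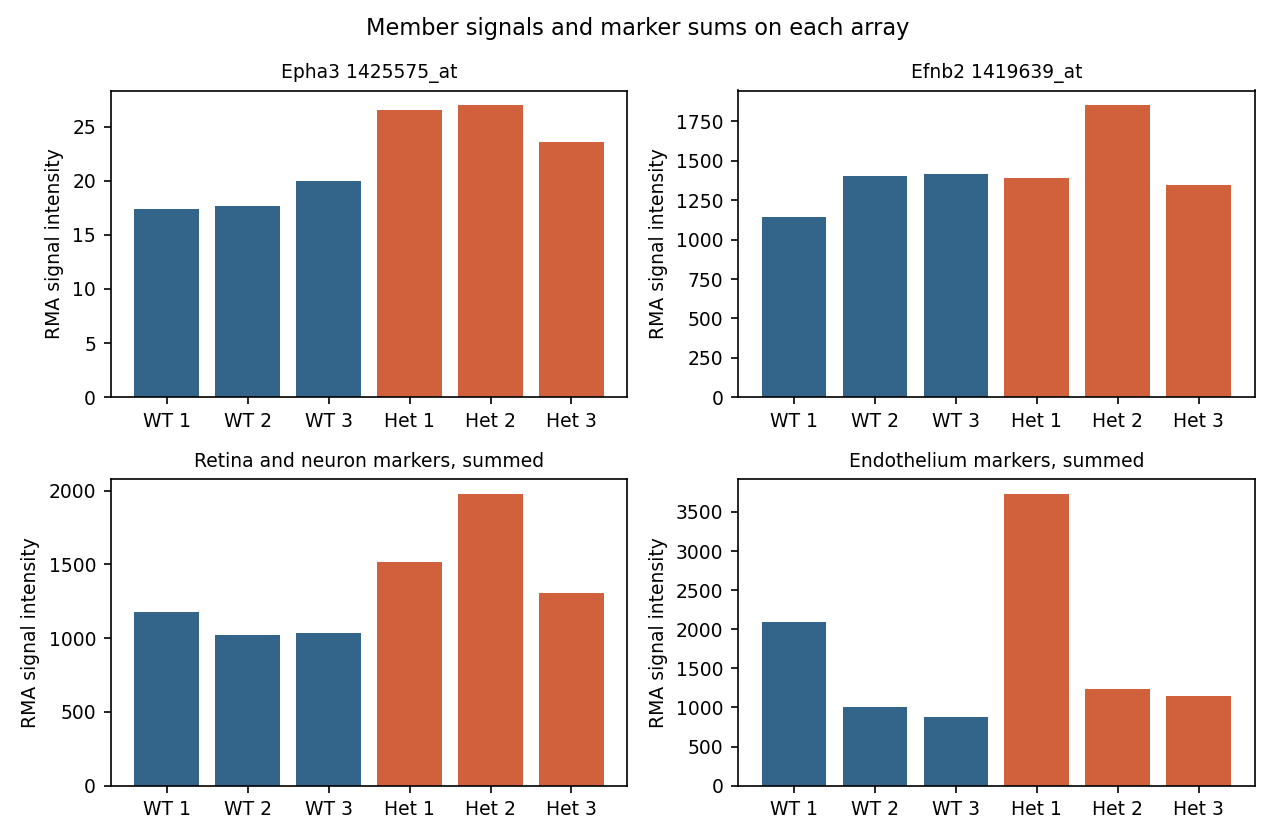
Signals (vertical axes, RMA intensity on linear scales from 0) of Epha3 1425575_at and Efnb2 1419639_at on each array, above the summed signals of 14 retina and neuron markers and of 12 endothelium markers. WT is wild-type and Het heterozygous, each with its replicate number. The retina and neuron sum spans 1024 to 1174 in wild-type and 1306 to 1979 in heterozygous samples, and the endothelium sum is highest in replicate 1 of each genotype.

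The stretch before the start of Efnb2 is shown with those of Efna5 and Epha3, chosen after the values were seen, since these 3 genes include the brightest signal of the family, a signal at background and the only member whose genotypes did not overlap. Each is 250 bases from RefSeq on GRCm38.p6, all on the minus strand: chr8:8661243-8661492 for Efnb2, chr17:62881318-62881567 for Efna5 and chr16:63864176-63864425 for Epha3. Capitals mark matches, on either strand, to the letters GGGCGG of the GC box, to the CCAAT box, which is named for its letters, or to the letters TATAAA of the TATA box, and no match overlapped another.
Efnb2: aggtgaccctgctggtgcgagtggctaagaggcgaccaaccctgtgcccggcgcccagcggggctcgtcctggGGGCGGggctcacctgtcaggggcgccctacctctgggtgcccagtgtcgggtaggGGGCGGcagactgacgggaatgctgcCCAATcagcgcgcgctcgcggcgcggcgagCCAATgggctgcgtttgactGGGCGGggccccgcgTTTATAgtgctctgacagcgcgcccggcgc
Efna5: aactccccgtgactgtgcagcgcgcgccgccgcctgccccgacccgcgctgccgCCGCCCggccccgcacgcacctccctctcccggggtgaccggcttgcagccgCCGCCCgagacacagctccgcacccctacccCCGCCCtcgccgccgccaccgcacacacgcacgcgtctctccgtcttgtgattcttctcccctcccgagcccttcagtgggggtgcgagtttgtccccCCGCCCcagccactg
Epha3: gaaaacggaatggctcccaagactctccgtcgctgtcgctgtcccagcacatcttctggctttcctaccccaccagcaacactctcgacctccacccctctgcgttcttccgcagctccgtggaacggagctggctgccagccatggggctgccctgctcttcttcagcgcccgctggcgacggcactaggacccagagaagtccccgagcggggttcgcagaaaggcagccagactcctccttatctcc

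Efnb2 had 3 GC boxes, 2 CCAAT boxes and 1 match to the letters of the TATA box, the last 30 bases before the start. The printed stretch reads TTTATA there, so TATAAA lies on the strand opposite to the gene. Efna5 had 4 GC boxes and Epha3 matched none of the motifs. Over the 12 RefSeq starts of the 10 named genes, Ephb2 included, 9 held a GC box, 6 a CCAAT box and 1 a TATA box, where 32.7%, 33.8% and 12.4% of 32851 stretches of the same length did. The 2 stretches of Epha7 overlap over most of their length, so the same GC box and CCAAT box count for both. The 12 stretches were also richer in CG dinucleotides, with a median of 19 against 6 over all. The shares were not adjusted for this. The letters TTCACGC, a part of the consensus site of the Pax6 paired domain, were in 0 of the 12 and in 1.03% of all. None of the natural sites that the study found to bind recombinant Pax6 holds these letters. A homeodomain site, TAAT and ATTA with 3 bases of any kind between them, was likewise in 0 of the 12 and in 0.463% of all. Both motifs are rare over all stretches, so 0 of 12 does not show that Pax6 sites are absent. The Efna5 stretch had 32 CG dinucleotides, more than 95.4% of all stretches, and that of Efnb2 had 27. Matches of letters are a description only, and distant elements were not searched.

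Efnb1 encodes ephrin-B1, a transmembrane ligand whose human gene is mutated in craniofrontonasal syndrome. Its brightest probe set (1418286_a_at) read 94.4, 58.5 and 113 in the wild-type mice and 130, 70.4 and 67.6 in the heterozygous ones. The genotypes overlapped widely, and the pairs of same-numbered mice disagreed in direction, with replicate 3 lower and the others higher in the heterozygous mouse. The means were 88.5 ± 27.6 and 89.4 ± 35.4 (SD, n = 3), and the log2 difference was 0.00 ± 0.34.

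The second Efnb1 probe set (1418285_at) was low in replicate 2 of each genotype. It read 69.9, 19.6 and 75.3 in the wild-type mice and 73.3, 38.1 and 72.5 in the heterozygous ones. The other 4 samples lay between 69.9 and 75.3. Its difference was 0.33 with a standard error of 0.56, the largest of the family, and 0.21 in the fit with the block. The third (1451591_a_at) read from 14.2 to 23.3, with wild-type replicate 2 again lowest.

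Efna1 encodes ephrin-A1, a lipid-anchored ligand with high affinity for EphA2. Its brightest probe set (1416895_at) read 73.8, 62.9 and 59.5 in the wild-type mice and 83.2, 58.2 and 48.6 in the heterozygous ones. In each genotype replicate 1 was highest and replicate 3 lowest, and the heterozygous values lay on both sides of the wild-type ones. The means were 65.4 ± 7.50 and 63.3 ± 17.9, a log2 difference of −0.08 ± 0.22 and a ratio of 0.948 with a 95% interval from 0.659 to 1.36. The dimmer probe set (1448510_at) read 22.5, 22.3 and 16.8 against 20.7, 21.6 and 15.0, lower in the heterozygous mouse in 3 of 3 pairs by small amounts (−0.11 ± 0.20).

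Efna5 encodes ephrin-A5, the lipid-anchored ligand tied to lens clarity in mice. Its only probe set (1421796_a_at) read 16.3, 9.65 and 8.77 in the wild-type mice and 14.7, 9.83 and 11.1 in the heterozygous ones. Replicate 1 was highest in each genotype, and the other 4 samples were at the level of olfactory receptors. The difference was 0.07 ± 0.27. A probe set this near background bounds neither the presence nor the change of the RNA.

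Among the receptors, Epha3 had the smallest p of the family. It encodes EphA3, which binds ephrin-A5 and guides axons. The brightest probe set (1425575_at) read 17.4, 17.7 and 19.9 in the wild-type mice and 26.5, 27.0 and 23.6 in the heterozygous ones. Every heterozygous sample read above every wild-type one, and all 3 same-numbered pairs had the same direction, by 0.61, 0.61 and 0.24 on the log2 scale. The means were 18.3 ± 1.40 and 25.7 ± 1.87 (SD, n = 3), a difference of 0.49 ± 0.12 and a ratio of 1.40 with a 95% interval from 1.14 to 1.72. By limma the unadjusted p was 0.00609 and the adjusted p 1.00, and when the replicate number entered as a block the adjusted p was 0.379. The exact permutation p, two-sided, was 0.1, the smallest that 3 against 3 mice allow. This probe set is in the study's own gene list, which was chosen on these samples, so its direction is not independent evidence.

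The other Epha3 probe sets gave no such difference. That of 1425574_at read 9.25, 8.32 and 8.10 in the wild-type mice and 8.08, 9.23 and 8.15 in the heterozygous ones, and 1426057_a_at stayed between 8.88 and 9.54. Both were at background, at the 1.64th and 6.95th percentile of tested probe sets, and their differences were −0.01 ± 0.12 and −0.04 ± 0.10. Over the mean of the 3 probe sets the Epha3 difference was 0.15 (limma, unadjusted p = 0.180).

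The summed signal of retina and neuron markers was also higher in every heterozygous sample, although single markers went both ways. The 14 measured markers summed to 1174, 1024 and 1037 in wild-type and to 1513, 1979 and 1306 in heterozygous lenses, and 11 of 14 had a difference above 0, with a median of 0.36. With limma 3 of 14 were higher (Neurod1, Stmn3 and Otx2) and 1 was lower (Elavl4) at an unadjusted p under 0.05, against 1.99% of all probe sets. With the block 5 were higher and 1 lower, against 9.03%, and 0 passed after adjustment in either fit. Neurod1, a factor of neuron differentiation, read 122, 141 and 140.4 in the wild-type mice and 197, 273 and 189 in the heterozygous ones. Elavl4, a neuronal RNA-binding protein, went the other way, with 68.6, 80.1 and 66.6 against 50.4, 54.1 and 47.5. Neither gene had overlapping genotypes. The same held for Stmn3, with 283, 171 and 234 against 346, 428 and 386, and for Rcvrn, both higher in heterozygous lenses. The other markers of the list overlapped, and over all probe sets 6.18% did not. Neurod1, like Epha3, is among the genes the study chose on these samples, so its direction is not independent evidence. Otx2, a homeobox factor of retina and brain, read 194, 156 and 156 in the wild-type mice and 442, 411 and 185 in the heterozygous ones, whereas Rcvrn, a photoreceptor marker, had a median of 10.04 and Nefm, a neurofilament gene, one of 13.5. Whether retinal or neuronal cells were present, and their part in the Epha3 signal, was not tested.

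Epha5 encodes EphA5, a receptor of axon mapping in the visual system and brain. Its brightest probe set (1437920_at) read 78.0, 49.3 and 118 in the wild-type mice and 98.2, 100.4 and 108 in the heterozygous ones. The heterozygous signals lay close together inside the wild-type range, with SDs of 5.31 and 34.3. The means were 102 in heterozygous and 81.6 in wild-type lenses, a difference of 0.41 ± 0.30 (limma, unadjusted p = 0.219) and a ratio of 1.33 with a 95% interval from 0.803 to 2.21. The value rested on single samples: it was 0.09 without wild-type replicate 2 and 0.72 without wild-type replicate 3 (limma, unadjusted p = 0.0212). The dimmer probe set (1420557_at) read 33.2, 24.3 and 31.8 against 31.6, 21.0 and 54.5, lowest in replicate 2 of each genotype, with a difference of 0.17 ± 0.35.

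Epha2 encodes EphA2, the receptor tied to lens cell order and cataract. Its only probe set (1421151_a_at) read 27.4, 28.3 and 26.3 in the wild-type mice and 30.2, 41.1 and 24.2 in the heterozygous ones. Heterozygous replicate 2 stood alone above the others and heterozygous replicate 3 was the lowest of the 6. The means were 27.3 ± 0.995 and 31.8 ± 8.55, a difference of 0.19 ± 0.20 and a ratio of 1.14 with a 95% interval from 0.812 to 1.59. Without heterozygous replicate 2 the difference was −0.02.

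Epha4, a receptor for ephrins of both classes, and Epha7, a receptor of cortical and retinal axons, stayed near background. The 2 probe sets of Epha4 read from 9.28 to 14.9 and differed by −0.08 ± 0.18 and −0.16 ± 0.16. The 3 of Epha7 read from 9.01 to 15.0 and differed by −0.09, −0.01 and −0.03. A difference in RNA can go undetected at this signal.

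**Figure D4:**
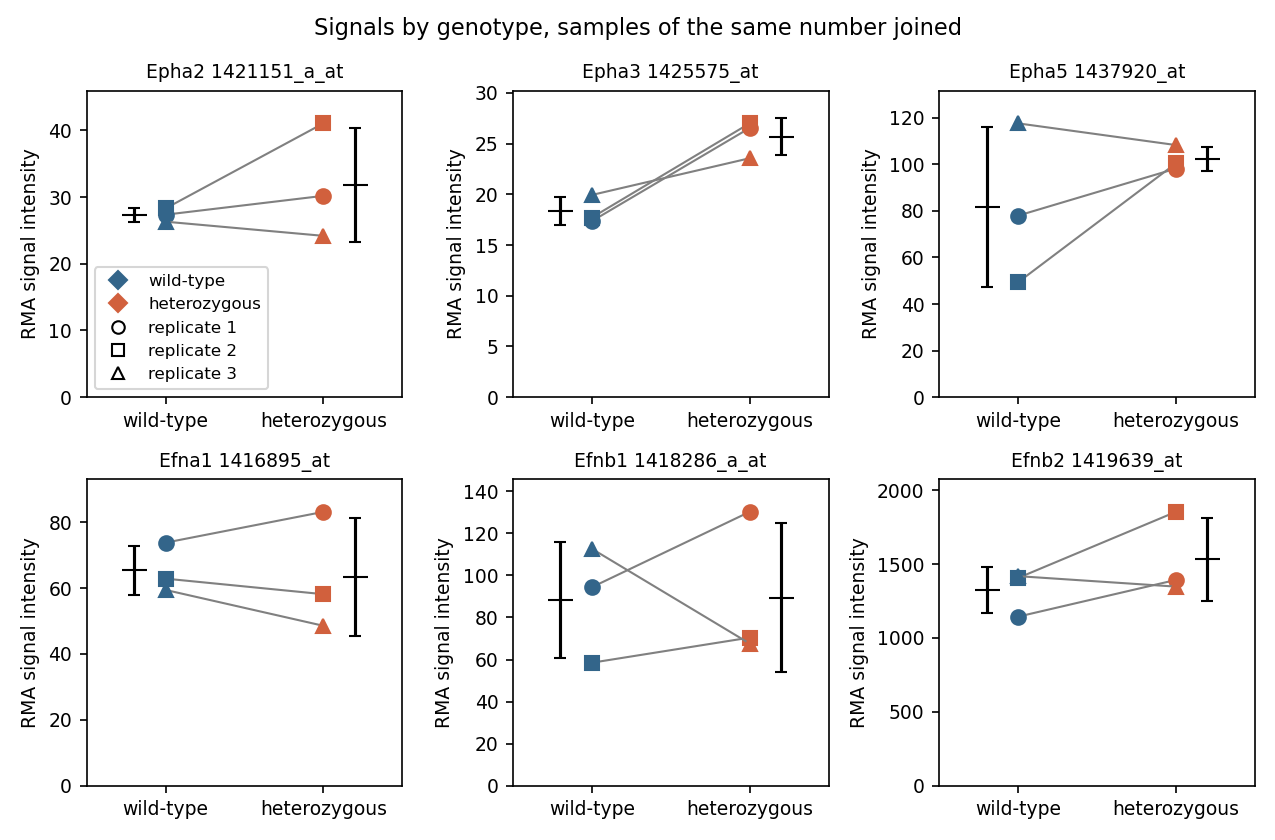
Signals of the brightest probe set of 6 genes in wild-type and heterozygous lenses (vertical axes, RMA intensity from 0), with lines joining samples of the same replicate number and bars giving mean ± SD of 3 mice. In Epha3 all 3 lines go up and the groups do not overlap (17.4 to 19.9 and 23.6 to 27.0), whereas in the other genes the lines cross or diverge and the groups overlap.

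Over all probe sets, samples of the same replicate number deviated together. In 20 of 21 member probe sets the standard error was smaller in the fit with the block. That fit also re-estimates the spread shared over all probe sets, so a smaller error need not mean sharing in that member. In Epha7 1427528_a_at wild-type values fell from replicate 1 to 3 and heterozygous ones rose. Its error still went from 0.124 to 0.121. The smallest unadjusted p of the family with the block was 0.00641 (limma), that of Epha3. The median difference was −0.01 over the 11 receptor probe sets (4 above 0) and 0.05 over the 10 ephrin probe sets (6 above 0). All probe sets of Epha4 and Epha7 and the dimmer ones of Epha3 read at background, and several probe sets share a gene. These medians therefore cannot show whether receptors and ligands differed.

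The remaining Eph receptors and ephrins on the array were dim. Their 12 probe sets of 10 genes had medians between 10.4 and 22.2, and none reached 50. With limma 0 of 12 passed the adjusted threshold and 0 had an unadjusted p under 0.05. With the block 2 did, those of Efnb3 and Ephb3 (adjusted p = 0.499 and 0.530), against 9.03% of all probe sets. Efnb3, ephrin-B3 of the nervous system midline, read 19.5 ± 3.44 in the wild-type mice and 24.5 ± 3.75 in the heterozygous ones, and Efna4, ephrin-A4, 11.0 ± 0.526 and 12.6 ± 0.743. In these 2 of 12 probe sets the genotypes did not overlap, against 6.18% of all, and Efna4 lay near the 95th percentile of olfactory receptors, 12.3. Ephb3 differed by 0.28 ± 0.20 and Epha6 by −0.26 ± 0.16.

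Genes of Eph and ephrin signaling lay evenly on both sides of 0, and most but not all were bright. Of 34 measured genes of this list, 25 had a median signal of at least 50, 17 differences were above 0 and the median was 0.00. Among the dim ones were Src and Vav2, with medians of 14.4 and 11.1. With limma 0 passed in either direction and 0 had an unadjusted p under 0.05, against 1.99% of all probe sets. With the block 1 did, against 9.03%. The smallest p belonged to Grip1, a PDZ scaffold that binds ephrins of class B, which read 163, 130.2 and 150.2 in the wild-type mice and 117, 105 and 136 in the heterozygous ones, with overlap (−0.31 ± 0.15). Next was Grb2, an adaptor of receptor tyrosine kinases, at 1172 and 1026 (−0.19 ± 0.13).

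Of 8 measured genes of lens cell junctions, the contacts at which ephrin-A5 and EphA2 act in mouse lens, 3 were above 0, with a median of −0.13 and 0 passing in either direction. Cdh1, E-cadherin of lens epithelium, read 491, 566 and 857 in the wild-type mice and 312, 501 and 566 in the heterozygous ones, lower in 3 of 3 pairs although the groups overlapped (−0.48 ± 0.30). Gja3, a connexin of lens fibers, read 291, 813 and 404 against 183, 583 and 279 (−0.56 ± 0.52). These were the 2 genes of the list with an unadjusted p under 0.05 in the fit with the block, which 9.03% of all probe sets had.

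The genes most like the brightest receptor and ligand over the 6 arrays were sought among 5548 genes with a median signal of at least 50. For Epha5 these were Tsc22d4, Cast, Rrs1, Topbp1 and Cggbp1, with Pearson correlations of log2 signal from 0.956 to 0.984. For Efnb2 they were Myt1, Ssr2, Arntl, Zcchc3 and Cib1, from 0.955 to 0.976. Myt1, a zinc finger factor of neural cells, read 223, 277 and 279 in the wild-type mice and 272, 467 and 254 in the heterozygous ones, with heterozygous replicate 2 the highest as in Efnb2. The 6 points share genotype and replicate number. In a search of 5548 genes over 6 points, correlations this high can arise by chance, and the values are a description with no test.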

How the data were processed

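The deposited signal intensities were made by the authors with RMA from Affymetrix mouse arrays, 1 per mouse, after amplification and biotin labeling of total RNA. The software version is not given in the sources used here. RMA pulls ratios of dim probe sets toward 1, and arrays have no read depth, so the number of mice limits the precision.

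The log2 of each signal was used as it stands. Of 22690 rows, fewer than the array named in the methods carries, 64 are controls and were dropped, leaving 22626, of which 20380 have 1 gene symbol, 691 several and 1555 none; 20351 were found in RefSeq by Entrez number. The heterozygous mice were set against the wild-type mice in limma 3.58.1 (R 4.3.3), and p-values were adjusted by Benjamini-Hochberg across the 22626, with 0.05 as the threshold. The fit was tested on simulated data. The brightest probe set stands for a gene. Every member probe set was to be named, those with a median of at least 50 or without overlap in full, with the 2 genes of smallest p in each further family or pathway list and the 5 genes most like the brightest receptor and ligand; Epha2, Efna5, the dimmer probe sets and the cell type markers were given sample by sample after their values were seen. The members and lists were chosen with earlier results of these data known, and the signal bound of 20, the olfactory receptor guide and the motifs were set after seeing the values. A second entry for Nck2 under an older name was taken out of the signaling list. The p-values measure the spread between these mice, whose sex is not given.

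Deviations from the genotype mean correlated at 0.645, 0.734 and 0.604 in same-numbered samples and from −0.496 to −0.0751 in others. All 3 are over 0.1, so the numbers pair the samples; what they share is not stated. The block was an alternative, since the methods use none. Without it the spread shared by replicate number stays in the error. Fewer of all probe sets then had an unadjusted p under 0.05 by limma, 1.99% against 9.03% with the block. The others were the methods' t-test, quantile normalization, median centring, an offset of 16, a signal bound of 50, an intensity trend with robust prior, array weights, 1 probe set or the mean per gene, and leaving out each sample. Promoter sequences are from RefSeq, GRCm38.p6. Figures were drawn with matplotlib 3.10.9.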

Additional observations from a re-analysis of the deposited data

How the results depend on the processing

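With 3 mice per genotype a small difference can go undetected, and 9 of the 21 probe sets read at background, where no difference can be bounded. No member passed an adjusted p of 0.05 under any of the 16 alternatives run for probe sets. Over all probe sets the number of calls was 0 in each of them except with the replicate block, where it was 2. The count of members with an unadjusted p under 0.05 stayed at 1, except that it was 0 among the 6 probe sets with a median signal of at least 50, where the brightest Epha3 probe set is not tested, and between 1 and 2 when a sample was left out, the second being Epha5 without wild-type replicate 3. The brightest Epha3 probe set kept its direction throughout, with differences from 0.28 (with the offset of 16) to 0.55. Its unadjusted p ran from 0.00432 to 0.0331 (limma and the methods' test). The mean over all Epha3 probe sets gave 0.15 (limma, unadjusted p = 0.180). The replicate block moved no member across the threshold.

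Of 192 values with all samples kept, 5 changed sign. With quantile normalization Epha3 1425574_at stood at 0.0091 and Epha7 1451991_at at 0.0041, with array weights Efnb1 1451591_a_at at −0.011 and Epha7 1451991_at at 0.030, and with the mean of all probe sets Efnb1 at 0.12. When a sample was left out, 31 of 126 values changed sign, in 15 probe sets. The log2 differences then ranged as follows: Efna1 1416895_at −0.29 to 0.10, Efna1 1448510_at −0.25 to 0.054, Efna5 1421796_a_at −0.10 to 0.35, Efnb1 1418286_a_at −0.31 to 0.20, Efnb1 1418285_at −0.30 to 0.67, Efnb1 1451591_a_at −0.13 to 0.23, Efnb2 1419638_at −0.080 to 0.17, Efnb2 1449548_at −0.073 to 0.31, Efnb2 1449549_at −0.16 to 0.020, Epha2 1421151_a_at −0.015 to 0.37, Epha3 1425574_at −0.074 to 0.046, Epha4 1421928_at −0.21 to 0.082, Epha5 1420557_at −0.19 to 0.49, Epha7 1451991_at −0.19 to 0.089, Epha7 1427528_a_at −0.087 to 0.037. The cause was not tested.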
